A study of Homo sapiens with 6 samples.

Results

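The 10 genes described here, FOS, FOSB, JUN, JUNB, JUND, EGR1, ATF3, NR4A1, BTG2 and DUSP1, are immediate early genes and close relatives of such genes, picked by symbol from the 17990 genes of a messenger RNA time course. All 10 were found, each as 1 RefSeq transcript, and 9 of them passed the minimum used for the comparisons, a mean of 20 counts over the libraries; EGR1, with a mean of 17.2, did not. The cells were LNCaP, an established human prostate cancer line with an active androgen receptor; all results are from this 1 line. Charcoal-stripped serum, low in hormones, was used for all groups beforehand. The 0 h group was non-treated, and the other 5 groups received dihydrotestosterone (DHT), the most potent natural androgen, at 10 nM for 3, 6, 12, 24 or 48 h. Each group is a single library, so replicate spread is unknown and differences are described without p-values. Libraries of untreated cells at later times were not used here, so time in culture and time with DHT cannot be told apart.

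Immediate early genes are transcribed within minutes of a growth factor or stress signal, without the need for new protein, and many of their RNAs are short-lived. The first DHT library here was at 3 h, so an earlier change that had passed by then cannot be seen. FOS and JUN proteins pair through leucine zippers to form AP-1, a transcription factor of growth and stress responses. EGR1 is a zinc finger factor and NR4A1 an orphan nuclear receptor. ATF3 is a stress-induced relative of the AP-1 proteins, while BTG2 restrains cell division and DUSP1 switches MAP kinases off. In LNCaP cells androgens drive a different set of genes, such as KLK3, TMPRSS2 and FKBP5, whose log2 changes at 24 h here were 1.08, 3.47 and 5.25.

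The stretches of DNA in front of 5 of the genes are shown because these genes are, with NR4A1, the ones past 2-fold at 48 h. Of the 5, 3 were lower and 2 higher (7.33% and 15% of all tested genes). EGR1, among the 3, was below the count minimum and so not called. Each stretch shown holds at least 1 of the motifs searched, and the 2 entries of NR4A1 hold none. The stretches are the 250 bases before the RefSeq gene start on GRCh38.p14, and all 10 genes had an entry. FOS lies at chr14:75278578-75278827 (plus strand), EGR1 at chr5:138465229-138465478 (plus), BTG2 at chr1:203305269-203305518 (plus), ATF3 at chr1:212565157-212565406 (plus) and DUSP1 at chr5:172771196-172771445 (minus). Capitals mark the CArG box (bound by the serum response factor), TGACGT or TGACGTCA (the cyclic AMP response element, in part and whole), TGACATCA (a variant of it), GCGTGGGCG or GCGGGGGCG (EGR sites) and AAAGGTCA (an NR4A site), searched on both strands.
FOS: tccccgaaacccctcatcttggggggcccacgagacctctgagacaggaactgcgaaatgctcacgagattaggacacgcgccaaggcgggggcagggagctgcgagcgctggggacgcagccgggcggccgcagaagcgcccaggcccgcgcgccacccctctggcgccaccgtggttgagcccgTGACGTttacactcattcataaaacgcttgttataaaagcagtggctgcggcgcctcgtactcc
EGR1: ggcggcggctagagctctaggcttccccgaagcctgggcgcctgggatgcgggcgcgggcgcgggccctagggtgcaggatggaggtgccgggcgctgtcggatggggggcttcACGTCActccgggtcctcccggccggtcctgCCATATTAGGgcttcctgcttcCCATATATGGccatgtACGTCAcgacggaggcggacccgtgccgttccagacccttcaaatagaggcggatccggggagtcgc
BTG2: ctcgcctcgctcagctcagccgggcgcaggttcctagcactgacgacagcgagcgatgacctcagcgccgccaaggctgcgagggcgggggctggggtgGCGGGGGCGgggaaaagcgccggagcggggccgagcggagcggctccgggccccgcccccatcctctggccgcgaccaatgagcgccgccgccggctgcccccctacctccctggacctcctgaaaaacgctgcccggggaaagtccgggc
ATF3: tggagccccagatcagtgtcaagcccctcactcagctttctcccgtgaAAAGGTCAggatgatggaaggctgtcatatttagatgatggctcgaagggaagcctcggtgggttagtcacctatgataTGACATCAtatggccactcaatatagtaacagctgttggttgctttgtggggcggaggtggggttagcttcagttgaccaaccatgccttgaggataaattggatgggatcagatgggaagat
DUSP1: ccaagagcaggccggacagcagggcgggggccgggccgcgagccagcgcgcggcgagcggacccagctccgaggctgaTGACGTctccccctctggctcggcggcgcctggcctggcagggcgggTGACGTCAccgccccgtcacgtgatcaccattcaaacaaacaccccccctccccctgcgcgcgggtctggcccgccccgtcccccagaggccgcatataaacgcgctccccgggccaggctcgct

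EGR1 was the only 1 of the 10 genes with a CArG box in this window, and it had 2, their first bases 105 and 83 bases before the start; 1.16% of 35116 promoter windows of 250 bases hold at least 1. TGACGT was found before 5 of the genes (FOS, FOSB, JUND, EGR1 and DUSP1) and in 7.1% of all windows, and the whole TGACGTCA, which contains TGACGT, before DUSP1 and JUND and in 1.65%. TGACATCA stood before JUN, 67 bases from the start, and before ATF3 (2.37% of all windows). The EGR site before BTG2 occurs in 5.37% of windows, and the NR4A site before ATF3 in 1.05%. Neither TGACTCA, the classic AP-1 site (4.2%), nor the full palindromic androgen response element (0.00285%), was found in these windows of any of the 10 genes. JUNB too had none of the motifs searched, and ATF3 had a second entry that held none. A match is a description of the letters, and its part in any change of level was not tested.

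Counts were scaled to CPM, the usual depth-scaled count, over the listed transcripts, whose totals ran from 13179917 to 20587956 per library. Changes are differences in log2(CPM + 1) from the 0 h library; a size of 1 or more, that is 2-fold, counted as higher or lower, and 11916 genes entered. Intervals of 95% with CPM values or ratios are exact and cover counting error only. Changes depended on the GC content of transcripts, with a correlation across genes of -0.739 at 6 h and -0.515 at 24 h, so values with that trend removed are given beside the results; the part of this trend in any result was not tested. Median of ratios and TMM scaling put the median of all tested genes at 24 h at 0.06 and 0.08 in place of -0.09, and no member's call at any time against 0 h changed with them. At 12 h the genes of chromosome 4 and of the distal part of chromosome 15 stood at medians of 10.4% and 8.10% of their level in the neighbouring libraries, and 0 of the 10 genes lie there. The 379 and 160 tested genes there remain in the all-gene shares of every comparison that uses the 12 h library. From 6 to 12 h 655 of all tested genes were at least 2-fold lower and 54 higher, and from 12 to 24 h 234 and 585. The part of these regions in those counts was not worked out. The 9 luminal prostate markers were detected in every library, at a summed 8982 to 23698 CPM. Those of basal epithelium summed to at most 0.969 CPM, with KRT5 at 0 counts in 3 libraries and TP63 at 0 in 1. The leukocyte markers summed to 13.5 to 18.5 CPM, of which CD68 alone made 13.3 to 18.3 CPM, and PTPRC was at 0 counts in 3 libraries. The fibroblast markers summed to 32.5 to 72.4 CPM, of which COL1A1 made 31.2 to 64.3 CPM, highest at 0 and 3 h. COL3A1 went from 57 and 75 counts at 0 and 3 h to 15 and 11 at 24 and 48 h. PDGFRB, below the count minimum, went from 36 and 34 to 8 and 7 at the same times. DCN had at most 5 counts, LUM at most 12, and COL1A2 was at 0 counts in 5 libraries. The part of these transcripts in the results was not tested.

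**Figure D1:**
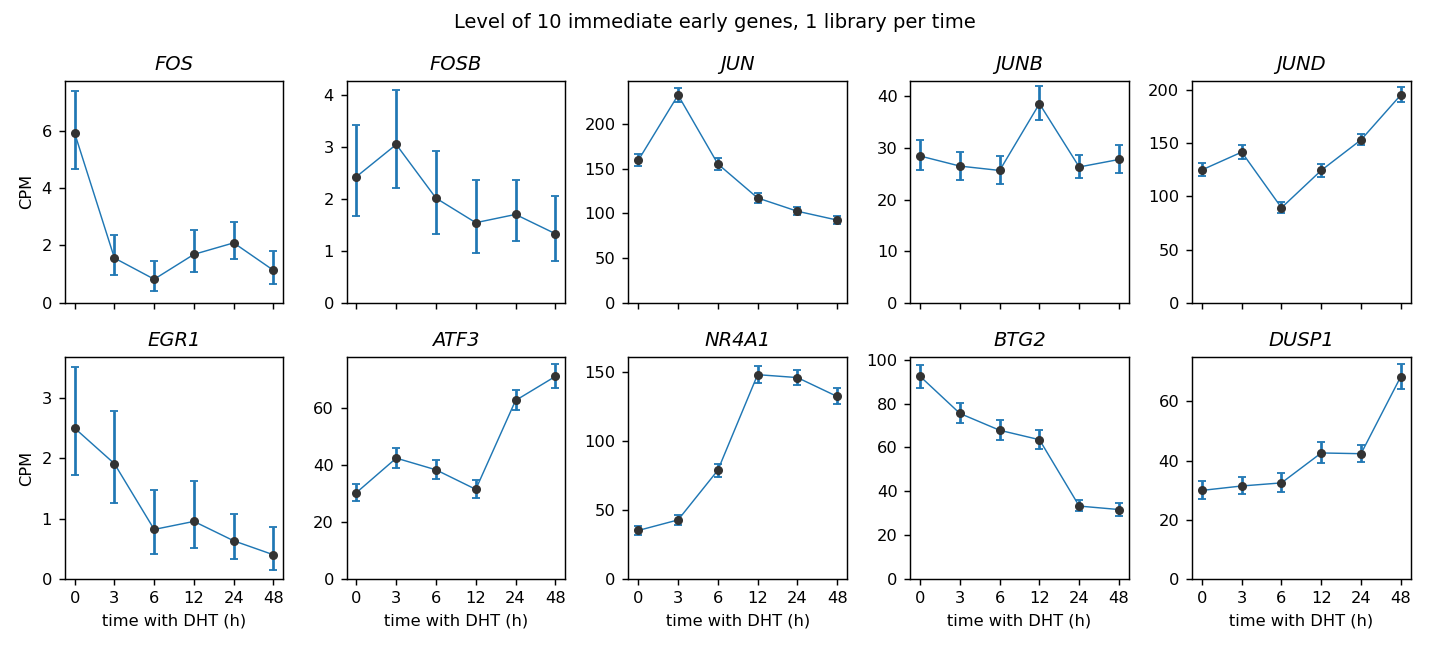
Level of each gene in CPM (vertical axes, linear and from 0, scaled per panel) in the 6 libraries against time with DHT (horizontal axes, evenly spaced); bars are exact 95% counting intervals. FOS was highest at 0 h with 5.92 CPM, JUN at 3 h with 232 CPM, and NR4A1 climbed to 148 CPM at 12 h.

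NR4A1 rose and FOS fell, while FOSB, JUN, JUNB and JUND stayed within 2-fold at every time. In such bulk RNA, fewer cells with a transcript and less of it per cell cannot be told apart. By 48 h ATF3 and DUSP1 had also risen and BTG2 had fallen, so that 3 of the 9 tested genes were higher and 2 lower. Of all tested genes 15% were higher and 7.33% lower at 48 h, and 1 gene makes 11.1% of this group. At 24 h 2 were higher (10.5% of all genes) and 2 lower (10.8%). At 12 h it was 1 in each direction (11% and 7.99%) and at 6 h again 1 in each (15.3% and 3.01%). At 3 h 0 were higher (0.747%) and 1, FOS, was lower (0.864%). After removal of the GC trend 0 were higher and 1 lower at 3 h (0.943% and 0.431% of 11138 genes whose GC content was known), and 1 each way at 6 h (3.8% and 1.56%) and at 12 h (3.97% and 7.45%). On that scale 3 were higher and 1 lower at 24 h (7.08% and 6.57%), and 4 were higher and 2 lower at 48 h (7.15% and 4.82%). Over the 5 times together 5 of 9 passed 2-fold at least once, against 36.8% of all tested genes. The 5 were NR4A1, ATF3, DUSP1, FOS and BTG2, and they were as many without the 6 h and 12 h libraries. The median change of the 9 genes was 0.18, -0.14, -0.01, -0.11 and -0.03 in the order of time, beside -0.08, 0.08, 0.03, -0.09 and -0.06 for all tested genes. Removal of the GC trend turned its sign at the last 4 times, with medians of 0.24, 0.26, 0.06, 0.55 and 0.47.

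**Figure D2:**
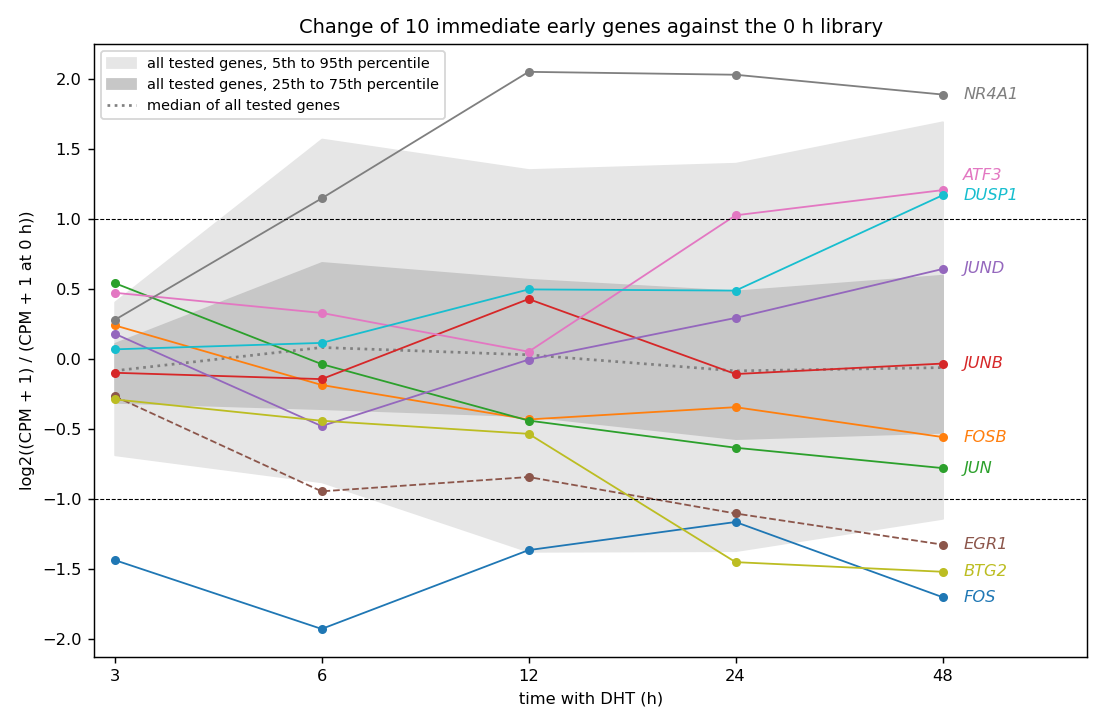
Change of each gene from 0 h in log2(CPM + 1) units (vertical axis) by time with DHT (horizontal axis); lines join libraries, grey bands run from the 5th to the 95th and from the 25th to the 75th percentile of the 11916 tested genes, dashed lines mark 2-fold and the dashed course is EGR1, below the count minimum. NR4A1 leaves the upper band at 12 h with 2.05 and FOS lies below it at 3, 6 and 48 h with -1.43, -1.93 and -1.70.

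FOS, the prototype of the immediate early genes, was a rare transcript in these cells. It stood at 5.92 CPM at 0 h, then at 1.56, 0.820, 1.69, 2.09 and 1.13 CPM, from 78, 22, 11, 23, 43 and 17 counts. The 0 h library was thus the only high one, its interval (4.68 to 7.39 CPM) clear of all others, and those of the neighbouring levels among the 5 DHT libraries overlapped. The intervals at 6 h (0.409 to 1.47 CPM) and at 24 h (1.51 to 2.81 CPM) did not overlap. The log2 changes were -1.43 at 3 h, -1.93 at 6 h, -1.36 at 12 h, -1.16 at 24 h and -1.70 at 48 h, each past 2-fold. As a plain ratio of CPM the level at 6 h was 0.139 of that at 0 h (95% interval 0.0665 to 0.262). At that time 0.0168% of the tested genes had a lower change. Without the GC trend FOS stood at -0.91 at 24 h, short of 2-fold, and past it at the other times. With a pseudocount of 5 CPM in place of 1 none of its 5 changes reached 2-fold. A pseudocount of that size, near the 0 h level of FOS, leaves little room for a 2-fold fall. As plain ratios of CPM, without a pseudocount, the levels were 0.263, 0.139, 0.285, 0.353 and 0.191 of that at 0 h. The interval at 24 h reached 0.519.

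FOSB, a second FOS protein that is induced along with FOS in many tissues, was as rare. Its levels were 2.43, 3.05, 2.01, 1.54, 1.70 and 1.33 CPM in the order of time. It was highest at 3 h (2.20 to 4.10 CPM) and lowest at 48 h (0.812 to 2.05 CPM), and these intervals did not overlap. Those of every pair of neighbours in the order of its levels did. Its changes from 0 h, -0.56 to 0.24, stayed within 2-fold. Its ratio at 48 h was 0.547 (0.297 to 0.987).

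FOSL2, which encodes the more stable FOS-related protein Fra-2 and belongs to the fixed list of other dimer partners, was the main transcript of the family. It went from 49.6 to 104 CPM at 3 h and stood at 109, 109, 119 and 71.2 CPM afterwards. Its log2 changes were 1.05, 1.12, 1.12, 1.24 and 0.51, past 2-fold from 3 to 24 h, and with the GC trend removed 1.04, 1.26, 1.24, 1.52 and 0.84. Per kilobase of transcript FOSL2 made up 65.3% of the FOS family (FOS, FOSB, FOSL1, FOSL2) at 0 h and 86.9, 93.2, 89.1, 91.9 and 88.1% in the DHT libraries. FOS went from 24.2% at 0 h to between 2.17 and 5.03%. Without division by length, the FOS share was 10.1% at 0 h and 0.728 to 1.70% later, and that of FOSL2 84.3% and 94.6 to 97.1%. The sum of the family was 11.3 CPM per kilobase at 0 h, 17.5 to 19.2 from 3 to 24 h and 12.0 at 48 h. FOSL1 was below the count minimum, with 5 to 19 counts.

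JUN, the main partner of FOS proteins in AP-1, had its highest level at 3 h. The libraries held 159, 232, 155, 117, 102 and 92.4 CPM in the order of time. After 3 h every later library was lower than the one before it, and among neighbours in the order of levels only the 0 h and 6 h intervals overlapped. The ratio to 0 h was 1.46 at 3 h (1.38 to 1.54), a log2 change of 0.54 that lay above 97.1% of tested genes, and 0.580 at 48 h (0.542 to 0.621). None of the JUN changes reached 2-fold. Without the GC trend the change at 48 h was -0.36 in place of -0.78.

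JUNB, a JUN protein often opposed to JUN in growth control, stood at 28.5, 26.5, 25.7, 38.6, 26.3 and 27.8 CPM. The 12 h library alone was high, 1.36 times the 0 h level (1.19 to 1.55), and the intervals of the other 5 overlapped with their neighbours. Its changes from 6 h on were -0.14, 0.43, -0.11 and -0.03, and without the GC trend 0.45, 0.90, 0.55 and 0.47, all within 2-fold but with 3 signs turned. JUND, the JUN protein that is made without a stimulus and holds cells at rest in some settings, had 125, 142, 89.4, 125, 153 and 196 CPM. It was lowest at 6 h and highest at 48 h, where the ratio was 1.56 (1.47 to 1.66). The JUND transcript has 69.7% GC, more than 99.6% of tested genes with a value, and its changes shifted upward at every time when the GC trend was removed. As scaled they were -0.48 at 6 h, 0.29 at 24 h and 0.64 at 48 h, within 2-fold, and with the trend removed 0.26, 1.08 and 1.18, the last 2 past 2-fold.

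Per kilobase JUND was the largest part of the JUN family in every library, and its share was 52.5% at 0 h, 48.7% at 3 h, 45.3% at 6 h, 55.2% at 12 h, 65.5% at 24 h and 71.7% at 48 h. JUN went from 35.2% at 0 h and 42.0% at 3 h to 17.8% at 48 h, and JUNB lay between 9.32 and 17.5%. This order depended on the division by length: without it JUN was ahead at 0, 3 and 6 h, with 50.9, 58.0 and 57.4% against 40.0, 35.4 and 33.1% for JUND. JUND was ahead without it at 12, 24 and 48 h, with 44.4, 54.4 and 61.9% against 41.8, 36.3 and 29.3%. The JUN family summed to 106 to 156 CPM per kilobase and exceeded the FOS family 11.3 times at 0 h, 6.06 times at 6 h and 12.2 times at 48 h. These shares compare RNA levels as counted, and the GC trend was not removed from them.

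**Figure D3:**
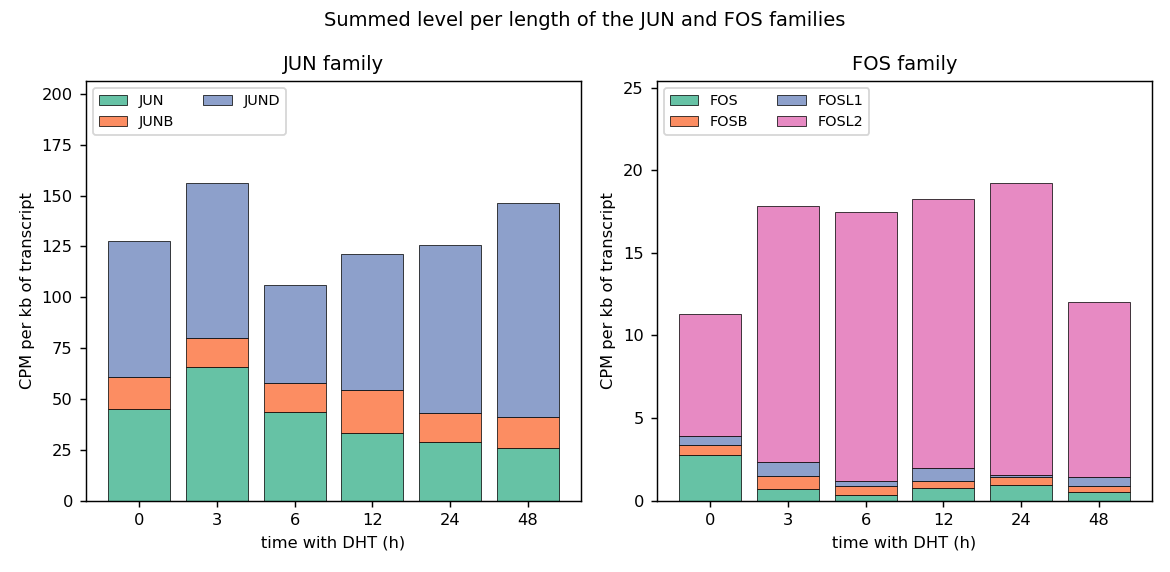
Summed level in CPM per kilobase of transcript (vertical axes, from 0, different for each family) of the JUN and FOS families by time with DHT (horizontal axes), each bar 1 library divided by gene. JUND makes up 71.7% of the JUN bar at 48 h and FOSL2 at least 86.9% of the FOS bar in each DHT library.

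EGR1, a zinc finger factor induced by nearly every growth signal, had the lowest mean count of the 10. Its counts were 33, 27, 11, 13, 13 and 6, or 2.50, 1.91, 0.820, 0.954, 0.631 and 0.399 CPM. The 0 h and 3 h libraries were the highest. Intervals of neighbours in the order of levels all overlapped. The interval at 0 h (1.72 to 3.52 CPM) nevertheless lay above all those from 6 h on, whose highest limit was 1.63 CPM, at 12 h. EGR1 was not part of the counts of called genes; on the same scale it had -0.94 at 6 h, -0.84 at 12 h, -1.10 at 24 h and -1.32 at 48 h. The ratio at 48 h was 0.159 (0.0545 to 0.385). Read against the GC curve of the tested genes, its changes at 24 and 48 h were -0.74 and -0.94, short of 2-fold.

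NR4A1, also called Nur77, rose the most of the 10 genes and stayed up. It had 35.1 CPM at 0 h, 42.8 at 3 h, 78.9 at 6 h, 148 at 12 h, 146 at 24 h and 133 at 48 h. The 3 latest libraries were all above the 3 earliest. At 12 h the ratio was 4.22 (3.82 to 4.68) and the log2 change of 2.05 lay above 98.8% of the tested genes. The changes at 6, 24 and 48 h were 1.14, 2.03 and 1.89. Without the GC trend the 4 changes from 6 h on were 1.61, 2.43, 2.57 and 2.36. Its relatives NR4A2 and NR4A3 had 3 to 15 and 5 to 13 counts, below the count minimum, and NR4A2 was highest at 0 h.

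ATF3, a stress-induced factor that dimerises with JUN proteins, rose late. Its levels were 30.3, 42.4, 38.3, 31.4, 62.6 and 71.0 CPM. The 24 h and 48 h libraries stood above the other 4, with ratios of 2.07 (1.85 to 2.32) and 2.35 (2.09 to 2.64) and log2 changes of 1.02 and 1.20. At 3 h ATF3 was at 1.40 times its 0 h level (1.23 to 1.59), within 2-fold, and at 12 h back at 1.04 (0.903 to 1.19). The step from 12 to 24 h was 0.97, just short of 2-fold, and it passed with median of ratios or TMM scaling.

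BTG2, an antiproliferative gene that recruits the deadenylase complex to messenger RNA and is a known target of p53, fell. It had 92.5, 75.5, 67.9, 63.5, 33.2 and 31.6 CPM, and each value was below the one before, though the intervals at 3 and 6 h and at 6 and 12 h overlapped. The intervals at 24 and 48 h lay below all earlier ones and overlapped each other. The log2 changes there were -1.45 and -1.52, ratios of 0.359 (0.327 to 0.395) and 0.342 (0.307 to 0.381). They stayed past 2-fold with the GC trend removed, at -1.29 and -1.31. The 2 libraries in which BTG2 was low were those in which ATF3 was high.

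DUSP1, the nuclear phosphatase that ends MAP kinase signals, was the last of the genes that rose to pass 2-fold, at 48 h. It had 29.9, 31.4, 32.4, 42.6, 42.3 and 68.4 CPM. The first 3 libraries lay together, those at 12 and 24 h at 1.42 times the 0 h level each (1.25 to 1.62 and 1.25 to 1.60), and the 48 h library stood apart. The ratio at 48 h was 2.29 (2.03 to 2.58), a log2 change of 1.17, and 1.55 with the GC trend removed.

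Between adjacent DHT libraries none of the 9 genes moved by 2-fold. This count was 0 from 3 to 6 h, where 22.3% of all tested genes changed, 0 from 6 to 12 h (5.95%), 0 from 12 to 24 h (6.87%) and 0 from 24 to 48 h (1.71%). With or without the GC trend, the shares of the steps to and from 12 h include the genes of chromosomes 4 and 15 that were low in the 12 h library. The largest steps were those of ATF3 from 12 to 24 h, of BTG2 over the same interval (-0.92) and of NR4A1 from 6 to 12 h (0.90) and from 3 to 6 h (0.87). After removal of the GC trend NR4A1 changed by 1.30 from 3 to 6 h (5.79% of all genes changed) and ATF3 by 1.15 from 12 to 24 h (6.41%), and none of the 9 genes changed from 6 to 12 h (5.7%) or from 24 to 48 h (0.979%).

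**Figure D4:**
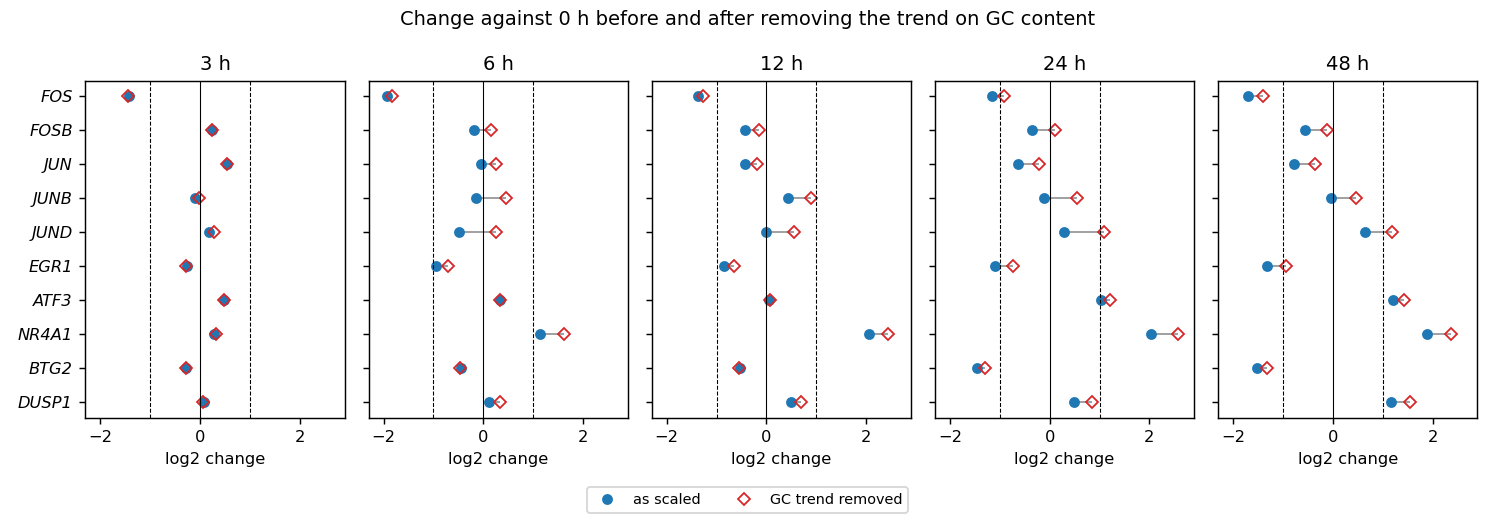
Log2 change against 0 h (horizontal axes) of the 10 genes (vertical axis) at each time, as scaled (filled circles) and with the trend on GC content removed (open diamonds); dashed lines mark 2-fold. The symbols nearly coincide at 3 h, and JUND at 24 h moves from 0.29 to 1.08.

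Other genes of the same pathways were followed in lists by role, and several lists held both genes that were higher and genes that were lower. At 24 h FOSL2 and ATF2 were higher and BATF2 and JDP2 lower, of 5 tested other dimer partners of FOS and JUN. Of all genes 10.5% were higher and 10.8% lower. JDP2, a repressor that binds AP-1 sites, went from 46.4 to 21.7 CPM, and ATF2, a partner of JUN, from 12.7 to 32.2 CPM, both at 24 h. With the GC trend removed ATF2 had 0.47 at 24 h and JDP2 -0.86, both short of 2-fold, and BATF2 -1.09. On that scale 1 of these partners was higher at 24 h, FOSL2, and 1 lower (7.08% and 6.57% of all genes). JDP2 was past 2-fold on both scales at 12 and 48 h, with -1.59 and -1.48 as scaled and -1.55 and -1.23 without the GC trend. Among the other EGR and NR4A genes and the NAB corepressors only NAB1 and NAB2 passed the count minimum, and NAB1, which restrains EGR1, fell at 3 and 24 h (-1.02 and -1.05, and -0.75 and -1.62 without the GC trend). EGR2, EGR3 and EGR4 had at most 2, 11 and 1 counts in any library.

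The genes upstream, the serum response factor SRF, its partners and the MAP kinase chain, were all 20 above the minimum. At 24 h 3 of 20 were higher and 1 lower (10.5% and 10.8% of all genes), with a median of 0.30. Without the GC trend 2 were higher and 0 lower among those with a GC value (7.08% and 6.57% of all genes). SRF itself stayed between 67.7 and 79.1 CPM. ELK4, an ETS partner of SRF, went from 49.5 to 185 CPM at 24 h, log2 changes of 1.41, 1.82, 1.88 and 1.73 from 6 h on. RPS6KA3, a kinase below ERK, had 2.14 at 48 h. With the GC trend removed ELK4 passed 2-fold only at 24 h (1.20) and RPS6KA3 at 24 and 48 h (1.09 and 1.27), while CREB1 and MKL2, past 2-fold at 6 h with 1.53 and 1.22, had 0.25 and 0.71.

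Relatives of DUSP1 and BTG2 moved in both directions. Of 9 other dual-specificity phosphatases 1 was higher and 2 lower at 24 h (10.5% and 10.8% of all genes), with a median of -0.21, and a median of 0.06 over those with a GC value once that trend was removed. DUSP10, which acts on the stress kinases JNK and p38, had 1.51 at 6 h and 1.64 at 24 h and no GC value. DUSP9 and DUSP2 had -1.12 and -1.14 at 24 h, and DUSP5 had -1.02 at 6 h; with the GC trend removed none of the 3 passed 2-fold at those times (-0.46, -0.50 and -0.75). BTG1, a BTG2 relative, went from 188 to 355 CPM at 3 h (0.91) and 416 CPM at 12 h (1.14), and was at 211 CPM at 48 h. Without the GC trend BTG1 had 1.22 at 3 h, past 2-fold, and 0.30 at 12 h. TOB1 had 1.07 at 12 h and 0.52 with the trend removed.

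Of 27 other immediate early genes tested, 6 were higher and 6 lower at 24 h, with a median of -0.02, beside the 10.5% and 10.8% of all genes. This balance did not hold without the GC trend, where 11 were higher and 6 lower (7.08% and 6.57% of all genes), with a median of 0.35. At 3 h 3 were higher and 2 lower (0.747% and 0.864% of all genes), and 4 and 1 without the GC trend (0.943% and 0.431%). KLF4, a zinc finger factor of epithelial differentiation, went from 3.87 to 32.4 CPM at 24 h (2.78), and HES1, a Notch target, from 4.63 to 15.2 CPM (1.53). MYC had -1.28 at 3 h and -2.58 at 24 h, and TRIB1, a pseudokinase, -2.09 at 24 h and -2.28 at 48 h. The 24 h values of these 4 genes stayed past 2-fold with the GC trend removed. Of 13 genes known as AP-1 targets only 4 passed the minimum. VEGFA and HMOX1 were higher at 24 h (1.33 and 1.60, and 1.96 and 2.07 without the GC trend). CCND1 and HBEGF, also tested, had -0.11 and 0.03 at that time (0.05 and 0.21). Thus 2 were higher and 0 lower (10.5% and 10.8% of all genes), as without the GC trend (7.08% and 6.57%). The matrix protease genes MMP1, MMP3 and MMP9 were below the minimum, at no more than 0.367 CPM in any library. MMP10, another matrix protease gene below the minimum, had 26, 30, 12, 4, 2 and 4 counts, or 1.97 and 2.13 CPM at 0 and 3 h and 0.0971 CPM at 24 h.

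**Figure D5:**
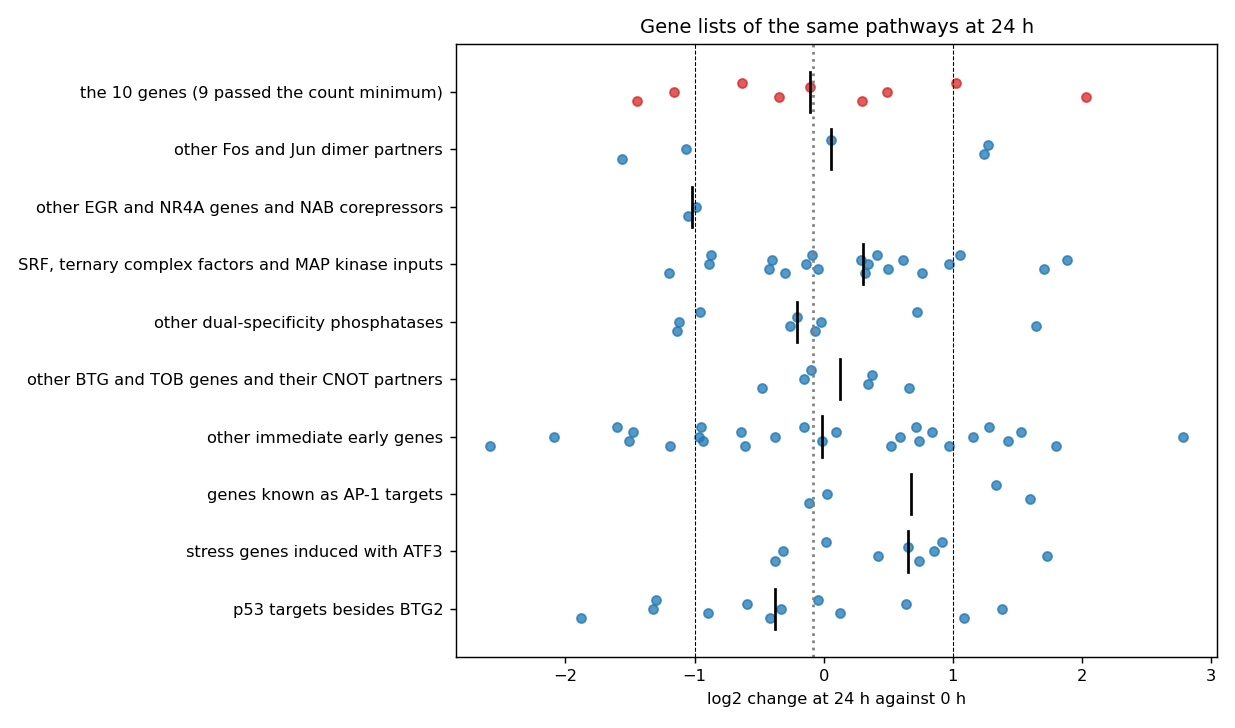
Log2 change at 24 h against 0 h (horizontal axis) of each tested gene (dots) in the gene lists (vertical axis), the 10 genes in red with 9 tested; black bars are list medians, the dotted line is the median of all tested genes (-0.09) and dashed lines mark 2-fold. Of the lists drawn, which leave out the cell type markers, that of the BTG and TOB genes alone has no gene past 2-fold.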

How the data were processed

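Total RNA of 6 LNCaP cultures was sequenced on an Illumina instrument, per the labels' protocols. The submitters' processing notes name hg19. Aligner, counter and strand handling: not given in the sources used here, so reads of overlapping or antisense genes may be shared. The authors' deposited table gives per RefSeq transcript a count, called tag in the file headers, and an RPM value, called ppm there, by which the authors scaled the counts to the reads of the library. Columns were tied to samples by the time in the header. After removal of 50 repeated lines, counts of 18001 transcripts were summed by symbol to 17990 genes. The analysis used CPM with a pseudocount of 1 and a mean of at least 20 counts (Python 3.11.15, scipy 1.17.1, statsmodels 0.14.6, edgeR 4.0.16 for TMM factors only). Intervals are exact, Poisson for levels and binomial (Clopper-Pearson, conditional on the sum) for ratios, at 95%. PCR copies are not told apart, so they cover counting error only. For a count of 0 a fixed floor of 3 counts, 0.146 to 0.228 CPM, was set, which does not come from these intervals. GC content and length came from GENCODE transcripts, for 11138 tested genes (93.47%), and the GC trend was a lowess curve of span 0.3. The procedure was tested on simulated data. Promoter windows came from RefSeq on GRCh38.p14, another build than that of the table, and were matched by symbol.

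The members and the gene lists were chosen with earlier results of these data known. The text names all members, KLK3, TMPRSS2 and FKBP5, and up to 4 genes per list. These 4 had the largest change at any time among those past 2-fold. The 3 genes closest in course to each member past 2-fold are also named. FOSL1, SRF, NAB2, CCND1, HBEGF, single markers and the EGR, NR4A and MMP genes below the minimum were added after their values were seen. Alternatives were 3 other scalings, 2 pseudocounts, no filter, the GC trend removed, 1 transcript per symbol, shares without length and the omission of the 6 h and 12 h libraries, the last 2 chosen after seeing the data. IER3 and KLF6 were not analysed here.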

Additional observations from a re-analysis of the deposited data

How the results depend on the processing

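No change of the 10 genes past 2-fold changed sign under any alternative run, and deposited RPM values, no filter, a pseudocount of 0.5 CPM and 1 transcript per symbol left each count of called genes within 1.5 times its value. With a pseudocount of 5 CPM, 0 members were lower at 3, 6 and 12 h, 1 was higher and 1 lower at 24 h, and 1 was lower at 48 h. With the GC trend removed 1 was lower at 24 h, and 1 changed from 3 to 6 h and 1 from 12 to 24 h; median of ratios and TMM scaling gave 1 from 12 to 24 h, in place of 0. Over all genes at 24 h, 49.3% of changed genes were higher (1249 and 1287), against 62.5% (1642 and 984) with median of ratios and 64.6% (1720 and 942) with TMM, which put the median of all genes at 0.06 and 0.08 in place of -0.09. At 3 h TMM gave 57.9% (103 and 75) against 46.4% (89 and 103). With the GC trend removed 105 and 48 genes were higher and lower at 3 h (68.6%), 423 and 174 at 6 h (70.9%, against 83.6% of 1826 and 359), 442 and 830 at 12 h (34.7%, against 58.0% of 1315 and 952), 789 and 732 at 24 h and 796 and 537 at 48 h. Without division by length the FOS share of its family was 10.1% at 0 h and 1.52% at 48 h, in place of 24.2% and 4.35%, and JUN, not JUND, led its family at 0, 3 and 6 h. The cause of the scaling and GC shifts was not tested. No paired analysis was possible because each group has 1 library. Depth limits FOS, FOSB and EGR1 most, with 6 to 78 counts per library, and leaving out a replicate was not possible with 1 per group.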

Other observations

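Genes that share a known inducer with ATF3 or BTG2 were followed in the same libraries. Of 9 stress genes known to be induced along with ATF3, 1 was higher and 0 lower at 24 h (10.5% and 10.8% of all genes), with a median of 0.66 beside -0.09 for all tested genes. That gene was CHAC1, which degrades glutathione, at 9.79 CPM at 0 h, 4.55 at 12 h and 34.8 at 24 h (1.73). From 12 to 24 h, the step in which ATF3 rose by 0.97, 3 of the 9 were higher: TRIB3, CHAC1 and ASNS. Their list had a median of 0.45 in this step beside -0.15 for all tested genes, of which 6.87% changed in either direction. Without the GC trend 3 were higher in this step among those with a GC value (6.41% of all genes changed). These were not the same 3 genes, because CHAC1 had no GC value and its change could not be read on that scale. The integrated stress factor ATF4 stood at 265 CPM at 0 h and 418 at 24 h (0.66, within 2-fold, and 1.07 without the GC trend), and DDIT3, its pro-apoptotic target, at 37.6 and 37.9 CPM. HSPA5, the chaperone of the endoplasmic reticulum, passed 2-fold at 12 h alone (1.01, and 0.77 with the GC trend removed). At 48 h, when ATF3 was highest, 0 of the 9 were past 2-fold (15% of all genes were higher and 7.33% lower), and without the GC trend 1 was, TRIB3, with 1.04 (7.15% higher and 4.82% lower). ATF4, DDIT3, TRIB3, ASNS and the step from 12 to 24 h were picked after their values were seen.

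Of 12 p53 targets besides BTG2, 2 were higher and 3 lower at 24 h (10.5% and 10.8% of all genes), with a median of -0.37; without the GC trend it was 1 and 2 (7.08% and 6.57%). BBC3, a pro-apoptotic BCL2 relative, went from 23.4 to 5.63 CPM (-1.88, and -1.09 with the GC trend removed), and PLK3 had -1.32 (-0.77). GDF15, a secreted stress cytokine, went from 894 to 2324 CPM at 24 h and 4659 CPM at 48 h (1.38 and 2.38), after 405 CPM at 6 h (-1.14). RRM2B had 1.76 at 48 h and 0.49 with the trend removed. CDKN1A, the best known p53 target and picked after its values were seen, stood at 221 CPM at 0 h and 242 CPM at 24 h.

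The genes whose course over the 5 DHT times lay closest to that of a member were found by the root mean square difference in log2 change, a description over 5 values that all share the 0 h library. Closest to NR4A1 were TMEM79 (0.101), WIPI1 (0.146), an autophagy protein, and GLRX2 (0.156), a mitochondrial glutaredoxin. Closest to FOS were ZNF703 (0.330), the interferon regulatory factor IRF1 (0.372) and ZFHX2 (0.377). IRF1 stood at 14.6 CPM at 0 h, 7.01 CPM after 3 h and 4.05 CPM after 48 h. BTG2 lay closest to TMEM158 (0.0907), GPR143 (0.105) and a transcript without a gene name in the table (0.119). ATF3 lay closest to HIST1H2BD (0.185), EGLN2 (0.207) and PACSIN2 (0.267). DUSP1 lay closest to C9orf19, now GLIPR2 (0.134), the adenosine receptor gene ADORA2A (0.137) and RHPN2 (0.145). EGR1, below the count minimum with 6 to 33 counts, lay closest to SF3A2 (0.0812), KAZALD1 (0.0959) and ZNF575 (0.109). At so low a level the pseudocount shrinks the changes compared here. The EGR1 ratio at 48 h was 0.159 in plain CPM and 0.399 with 1 CPM added.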
